A study of Mus musculus with 282 samples.

Results

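The 32 genes described here encode receptors, granule proteins, signalling proteins and transcription factors known from megakaryocytes and platelets. They were chosen by symbol, and all 32 were found among the 49671 mouse genes of the deposited count table. They were read in single hematopoietic stem cells (HSCs) sorted from bone marrow as lineage-negative, Sca-1-positive, Kit-positive cells (LSK) that were also CD48-/lo and CD150+. The mice were homozygous for rtTA, a doxycycline-dependent transactivator, at Rosa26 and for H2B-GFP, a histone fused to a fluorescent protein, at Col1a1, and they received no doxycycline. The study used 6 mice of 12 to 22 weeks in 2 experiments. All cells belong to 1 group, and no mature megakaryocyte or platelet was analysed here, so the data show which members HSCs transcribe and cannot show their levels in mature cells.

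Of 282 wells, 232 held at least 100000 gene counts and 1000 genes and were kept. Their totals ran from 116009 to 1680714 counts with a median of 280096. Each label carries a library number beginning with 29 or 32 and an HSC code, and these divide the kept cells into 6 sets of 22 to 46 cells, 2 of series L29 (codes HSC-3 and HSC-4) and 4 of series L32 (codes HSC-2 to HSC-5). No label ties a cell to a mouse. Whether a set is 1 animal is thus unknown. P-values over sets rest on the spread between sets, possibly technical, and limma pools that spread over genes. The cells of L29 HSC-4 had fewer genes (median 4151 per cell, other sets 5126 to 5686) and a higher median mitochondrial share (6.66%, other sets 3.28% to 3.73%). Of 20 HSC identity genes read as a check of the gate, 18 reached 10% of cells. Among them were Lmo2 at 90.5%, Kit at 84.5%, Ly6a (Sca-1) at 72.4% and Slamf1 (CD150) at 19.4%. Gfi1 (4.74%) and Hoxb4 (3.88%) did not. In L32 HSC-2 and L32 HSC-3, 5 of the 20 were higher in wells that failed the filter than in kept cells. Among these 5 were Lmo2 (745 against 445 CPM) and Kit (532 against 482 CPM).

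Megakaryocytes arise from HSCs under the control of thrombopoietin and of transcription factors such as GATA1, FOG1, FLI1 and NF-E2. They fill alpha granules with adhesive proteins and chemokines, place adhesion receptors on their surface and release platelets from long microtubule-rich extensions. Some mouse HSCs are known to carry transcripts of this programme, of which Vwf is the best known, and to be biased towards platelet production.

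Transcripts of 22 of the 32 members were detected in at least 10% of the kept cells, and 5 of these in more than 50%. Detection meant at least 10 CPM, the read count of a gene scaled to a common total per cell, which is 2.80 reads in the median kept cell. Of all genes in the table, 9689 (19.5%) reached 10% of cells. The SNARE protein gene Vamp8 was detected in 93.1% of cells, Nfe2 in 81.5%, the tetraspanin Cd9 in 68.5%, the G protein subunit Gng11 in 67.7% and multimerin Mmrn1 in 65.5%. The other 10 members lay under 10%. At the threshold itself, Plek lay just inside at 12.9% and Thbs1 just outside at 9.91%. By role, 7 of 7 signalling and secretion genes, 3 of 3 transcription and translation regulators and 2 of 2 tetraspanins reached 10%, as did 5 of 8 secreted proteins, 5 of 10 surface receptors and 0 of 2 cytoskeletal genes.

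**Figure D1:**
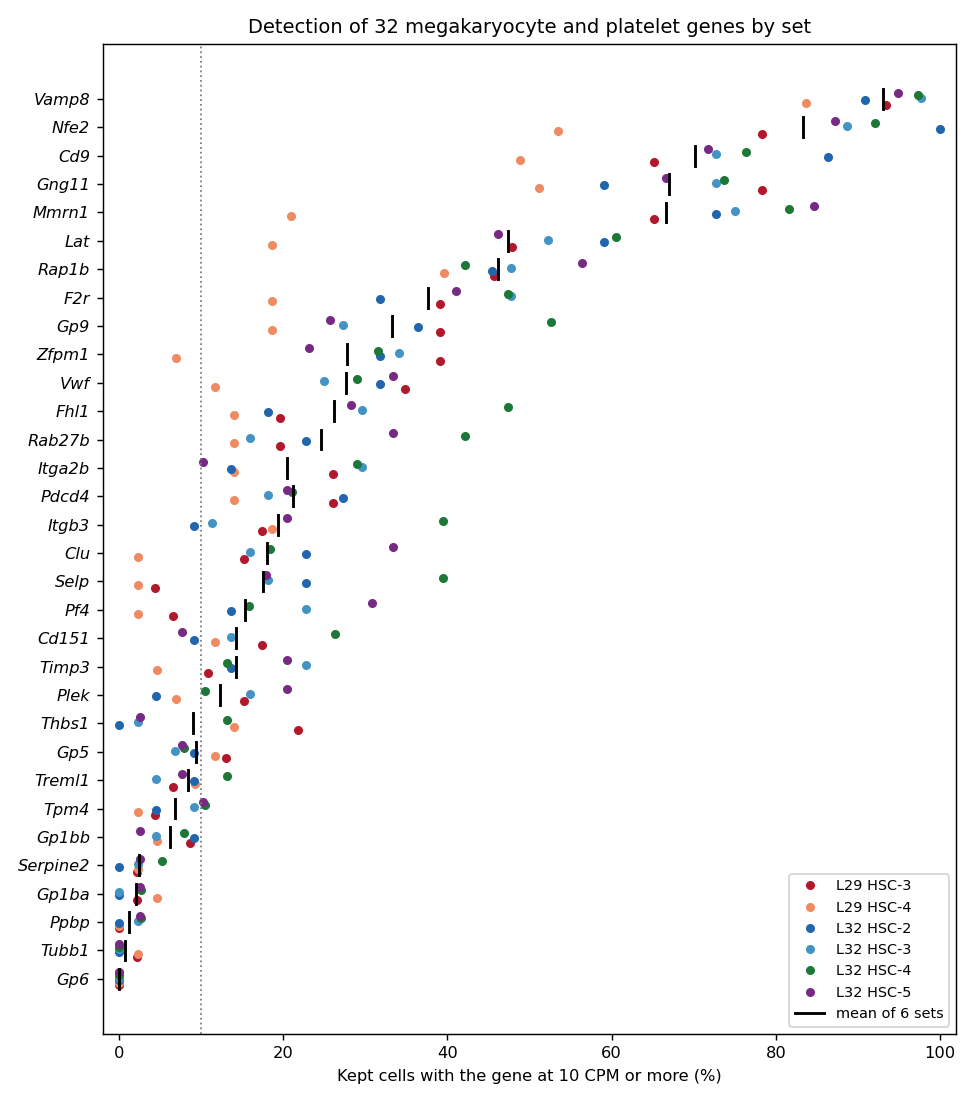
Percent of kept cells with each of the 32 members at 10 CPM or more, 1 point per set and a black bar for the mean of the 6 sets, with a dotted line at 10%. Vamp8 and Nfe2 were detected in most cells of every set, Gp6 was at 0 in every set, and set L29 HSC-4 had the lowest share for many members, for example 20.9% for Mmrn1.

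Levels per kilobase of exon, the scale on which genes can be set side by side, placed Vamp8 first at 232 CPM per kb. Gng11 followed at 213, Nfe2 at 176, Cd9 at 87.5, Mmrn1 at 69.1 and Gp9 at 68.1 CPM per kb. At the other end were Serpine2 at 0.986, Tubb1 at 0.547 and Gp6 at 0.0248 CPM per kb. The rarer members came from few cells, since the 10 cells with the highest values held 11.9% of the summed CPM of Vamp8 and 14.4% of that of Nfe2, but 47.7% for Vwf, 76.8% for Gp5, 91.7% for Gp1bb and 100% for Gp1ba.

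The von Willebrand factor receptor GPIb-IX-V was represented mainly by Gp9. This complex of leucine-rich repeat proteins tethers platelets to von Willebrand factor, and its subunits are encoded by Gp1ba, Gp1bb, Gp9 and Gp5. Gp9 (chromosome 6, 87778072 to 87779768 in mm10) was detected in 32.8% of cells (95% Clopper-Pearson interval 26.8% to 39.2%), with 18.6% in the lowest set, a median of 31.8% and 52.6% in the highest set. Gp5, the subunit that binds the complex most loosely, was at 9.48%, Gp1bb at 6.03% and Gp1ba, which carries the ligand-binding domain, at 2.16% (5 cells). All 4 subunits together were detected in 0 of 232 cells, which allows a share of up to 1.29%. In 138 cells no subunit was detected, in 75 cells 1, in 15 cells 2 and in 4 cells 3. Gp1bb shares bases with Sept5 on the same strand, so how reads there were assigned is uncertain.

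The 250 bases before the start of these 4 genes are printed because the subunits of 1 receptor differed in detection. They are RefSeq sequences of build GRCm38.p6, read 5′ to 3′ on the strand of the gene. Capitals mark GATAA, the core bound by GATA factors, and GGAAG, a core bound by ETS factors such as FLI1, each searched on both strands, so that TTATC and CTTCC are the same motifs on the other strand.
Gp9 (chr6:87777820-87778069, plus strand): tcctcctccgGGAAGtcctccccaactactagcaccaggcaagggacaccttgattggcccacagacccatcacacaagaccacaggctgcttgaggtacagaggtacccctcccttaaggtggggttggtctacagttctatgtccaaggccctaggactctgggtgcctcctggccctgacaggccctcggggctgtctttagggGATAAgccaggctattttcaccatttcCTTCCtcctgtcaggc
Gp5 (chr16:30310782-30311031, minus strand): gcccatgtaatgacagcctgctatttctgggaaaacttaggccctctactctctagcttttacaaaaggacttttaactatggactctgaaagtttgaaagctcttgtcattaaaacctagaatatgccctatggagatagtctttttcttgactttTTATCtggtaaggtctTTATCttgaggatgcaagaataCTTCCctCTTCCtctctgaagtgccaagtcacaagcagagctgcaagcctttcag
Gp1bb (chr16:18622404-18622653, minus strand): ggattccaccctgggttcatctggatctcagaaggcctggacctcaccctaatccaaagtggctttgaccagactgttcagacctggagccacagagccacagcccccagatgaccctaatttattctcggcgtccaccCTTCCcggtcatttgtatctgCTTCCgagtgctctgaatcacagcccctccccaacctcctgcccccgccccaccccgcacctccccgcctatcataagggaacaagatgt
Gp1ba (chr11:70638872-70639121, plus strand): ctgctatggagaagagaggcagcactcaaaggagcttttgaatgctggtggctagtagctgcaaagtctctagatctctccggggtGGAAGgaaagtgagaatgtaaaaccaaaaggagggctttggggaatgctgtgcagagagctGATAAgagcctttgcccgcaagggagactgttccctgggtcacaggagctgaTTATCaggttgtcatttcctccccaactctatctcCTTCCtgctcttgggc
Each of the 4 windows held 2 GGAAG matches, while GATAA matches numbered 2 before Gp5, 2 before Gp1ba, 1 before Gp9 and 0 before Gp1bb. Detection was 9.48% for Gp5 and 2.16% for Gp1ba, with 2 GATAA matches each, 32.8% for Gp9 with 1 and 6.03% for Gp1bb with 0. No match overlapped another. RefSeq promoters were matched for 25 of the 32 members (not for Vwf, Clu, Itgb3, Rab27b, Nfe2, Thbs1 and Gng11). GATAA lay in 6 of these 25 (24%) against 22.6% of all 32851 promoters, and GGAAG in 20 (80%) against 64.1%. Members count 1 promoter per gene, the one nearest the gene start, whereas the 32851 hold more than 1 for some genes. A match is a description of the letters and not a binding site.

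The other platelet surface receptors ranged from common to undetected. F2r, the thrombin receptor PAR1, which carries thrombin signals in human platelets, was the most widely detected receptor at 37.9% of cells, with 18.6% in the lowest set, a median of 40.1% and 47.7% in the highest. Itga2b (CD41), the alpha chain of the fibrinogen receptor, was at 21.1% (10.3%, 20.0% and 29.5% for the lowest, median and highest set). Its partner chain Itgb3 was at 19.8% (9.09%, 18.0% and 39.5%). The shares of cells overlapped widely between the series for these receptors. The summed level of Itga2b did not, at 73.7 and 75.0 CPM in the L29 sets and 8.32 to 40.4 CPM in the L32 sets. Both chains of the fibrinogen receptor were detected in 13 cells, 1 chain in 69 and neither in 150. Selp encodes P-selectin, which moves from alpha granules to the surface of activated platelets, and was at 16.4% of cells. Its share was 4.35% in L29 HSC-3 and 2.33% in L29 HSC-4, against 17.9% to 39.5% in the 4 L32 sets, so that the series did not overlap. Treml1, a receptor of alpha granules, was at 8.19%. Gp6, the collagen receptor, was detected in 0 of 232 cells, and 6 cells held any read of it.

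The tetraspanin Cd9 was among the most even members across sets in level. Tetraspanins organise membrane proteins into domains, and Cd9 is abundant on platelets. It was detected in 48.8% of cells in the lowest set, 72.3% in the median and 86.4% in the highest. Its summed level ran only from 146 to 204 CPM over the 6 sets. Reads of Cd9 cannot be fully told apart from a copy on chromosome 7, Cd9-ps, of 650 bases. That copy held 1076 reads against 13208 for Cd9, and all 146 cells with a read of the copy also had Cd9 reads. Cd151, which is known to modulate integrin signalling in platelets, was at 14.7% of cells, with 7.69% in the lowest and 26.3% in the highest set.

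Among the secreted and granule proteins, Mmrn1 was by far the most widely detected. Mmrn1 encodes multimerin 1, a large alpha granule protein that binds coagulation factor V. It was detected in 65.5% of all cells, in 20.9% of L29 HSC-4 and in 65.2% to 84.6% of the other 5 sets. Its summed level was 107 CPM in that set and 316 to 589 CPM in the others. Vwf encodes von Willebrand factor, which links platelets to collagen, and was detected in 63 cells (27.2%, interval 21.5% to 33.4%). Its shares were 34.8% in L29 HSC-3, 11.6% in L29 HSC-4, 31.8% in L32 HSC-2, 25.0% in L32 HSC-3, 28.9% in L32 HSC-4 and 33.3% in L32 HSC-5. Apart from the low L29 HSC-4 the sets lay close together, while single cells ranged up to 1950 CPM. Endothelial cells also express Vwf. Of 9 endothelial and stromal markers 3 reached 10% of cells (Emcn at 28.4%, Pecam1 at 23.3% and Col1a2 at 15.9%). Cdh5, another of the 9, was detected in 0 of 232 cells, which allows up to 1.29%. Cdh5 was named after its value was seen, and the source of the Vwf reads was not tested.

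Clu, which encodes the chaperone clusterin stored in platelet granules, was at 17.2% of cells. Its share was 2.33% in the lowest set and 33.3% in the highest. Pf4 and Ppbp encode alpha granule chemokines that are among the most abundant products of mature megakaryocytes. Pf4 was at 15.1% of cells, from 2.33% to 30.8% across sets, and in cells with Pf4 the median level was 98.2 CPM. Ppbp was at 1.29% (3 cells). Timp3, a metalloproteinase inhibitor, was at 14.2%, and it overlaps Syn3 on the opposite strand. Thbs1, the adhesive granule protein thrombospondin 1, was at 9.91% with a very uneven spread. The summed level of Thbs1 was 203 CPM in L32 HSC-4, 72.0 CPM in L29 HSC-3 and 62.0 CPM in L29 HSC-4, but 0 to 0.420 CPM in the other 3 sets. Serpine2, a thrombin inhibitor, was at 2.59%.

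All 7 signalling and secretion genes were detected in at least 10% of HSCs. Vamp8, the main vesicle SNARE of platelet granule release, was at 83.7% of cells in the lowest set, 94.2% in the median and 97.7% in the highest. Gng11, a G protein gamma subunit, was at 67.7% of cells. Rap1b, the small GTPase that drives integrin activation, was at 46.1% and varied little between sets, from 39.5% to 56.4%. Lat, the adaptor downstream of the collagen receptor, was also at 46.1%, with 18.6% in L29 HSC-4 and 46.2% to 60.5% elsewhere. Lat was thus common in cells in which Gp6 was not detected. Fhl1, a LIM domain protein, was at 26.3%. Rab27b, a GTPase of granule transport, was at 24.1%. Plek encodes pleckstrin, the major protein kinase C substrate of platelets, and was at 12.9%.

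The transcription factor Nfe2 (chromosome 15, 103248212 to 103258403) was in nearly every cell of some sets, whereas the platelet tubulin gene that NF-E2 is known to activate was almost absent. Nfe2 encodes the p45 subunit of NF-E2, which drives the last steps of platelet formation. It was detected in 53.5% of cells in L29 HSC-4, in 78.3% in L29 HSC-3 and in 87.2% to 100% of the L32 sets, with a median level of 565 CPM where detected. In L32 HSC-2 and L32 HSC-3 its summed level was 623 CPM in kept cells and 514 CPM in wells that failed the filter. In those wells with fewer gene than spike-in counts it was 793 CPM. Tubb1, the beta tubulin of the platelet microtubule ring, was detected in 2 cells (0.862%, interval 0.105% to 3.08%). Tpm4, a tropomyosin of the actin cytoskeleton, was at 6.90%. Zfpm1, which encodes FOG1, the partner of GATA1, was at 27.6% of cells. Pdcd4, an inhibitor of translation, was at 20.7% and varied from 14.0% to 27.3% between sets.

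Other genes of the same pathways, taken from 3 lists outside the members, were also unevenly detected. Of 16 megakaryocyte transcription factors and thrombopoietin signalling genes, 15 reached 10% of cells with a median of 42.7%. Among them were Meis1 at 88.4%, Lyl1 at 80.6% and Fli1 at 61.6%, and only Gata1 was under 10% (2.59%, 6 cells). Of 24 adhesion and signalling genes 16 reached 10%, led per kilobase by Cd63 (90.9% of cells), Fermt3 (76.7%), Fcer1g (37.1%) and Esam (56.0%). Fcer1g is the signalling chain that pairs with the collagen receptor. Of 22 granule, enzyme and cytoskeleton genes 14 reached 10%, led by Tmsb4x (100%), Srgn (99.6%), Arhgdib (94.0%) and Bin2 (83.6%). Of 32 members, 22 had done so, and of all genes 19.5%.

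Wells that failed the filter gave a comparison level for each member, though not all of them held fewer gene than spike-in counts. Among sets with at least 10 such wells, L32 HSC-2 and L32 HSC-3 held 45 of them with 957538 reads, which were set beside 66 kept cells of the same sets. Of the 22 members at 10% of cells, 6 were higher in these wells (Pf4, Itgb3, Rab27b, Plek, Rap1b and Gng11), against 25.7% of all 9689 genes at 10% of cells. Plek was at 236 CPM in the wells under the filter and 51.4 CPM in kept cells, and Rab27b at 144 against 28.2 CPM. Cd9 was at 9.40 CPM there against 181 CPM in kept cells, F2r at 2.09 against 109, Selp at 4.18 against 101 and Vwf at 18.8 against 68.7. The summed level of the first 6 in kept cells was thus not above that in the 45 wells, and their number was close to the share of all genes. The 38 of these wells with fewer gene than spike-in counts were compared after seeing the data. Itgb3, Rab27b, Plek and Nfe2 (793 against 623 CPM) were higher there than in kept cells. Gng11 (13.0 against 155 CPM), Rap1b (35.7 against 104 CPM) and Pf4 (1.62 against 27.4 CPM) were lower there than in kept cells.

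**Figure D2:**
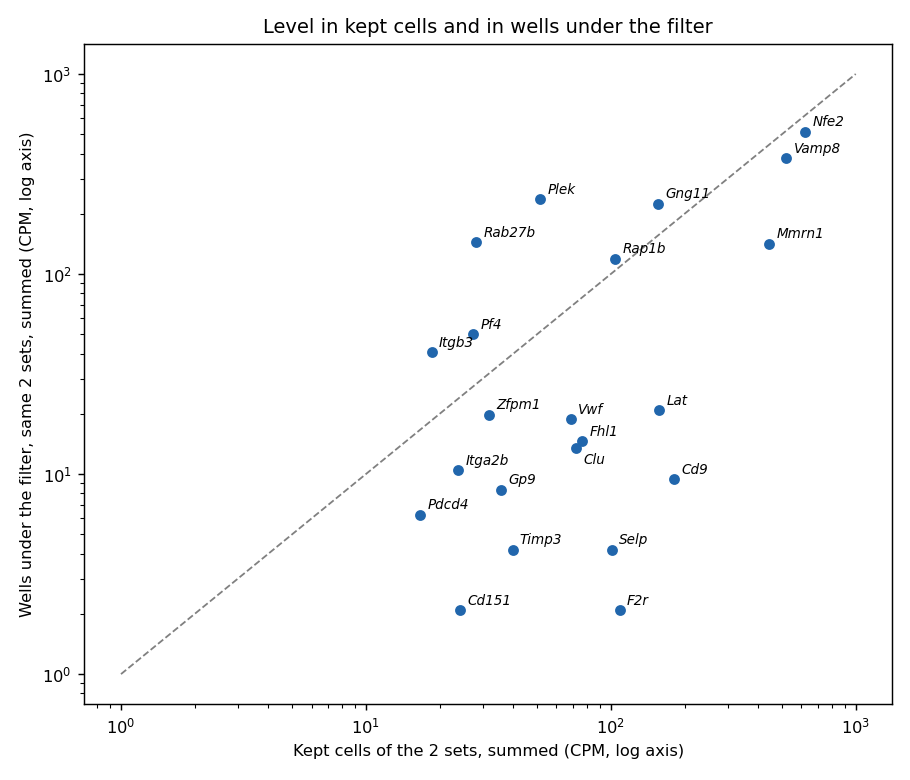
Summed level of the 22 members detected in at least 10% of cells, in CPM on log axes, in 66 kept cells (x axis) and 45 wells under the filter (y axis) of sets L32 HSC-2 and L32 HSC-3, with the line of equality dashed. Plek (51.4 against 236 CPM) and Rab27b (28.2 against 144 CPM) lie above the line, and F2r (109 against 2.09 CPM) and Cd9 (181 against 9.40 CPM) lie far below it.

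The sets were also compared by library series, whose meaning the labels do not give. Pf4 was at 7.17 and 4.99 CPM in the 2 L29 sets and at 21.2 to 30.2 CPM in the 4 L32 sets. Fhl1 was at 34.1 and 33.7 CPM in L29 and at 63.0 to 108 CPM in L32, and Selp at 13.8 and 1.12 CPM against 31.6 to 127 CPM. Itga2b was at 73.7 and 75.0 CPM in L29 and 8.32 to 40.4 CPM in L32. Of 31 members tested, 10 had L29 and L32 sets that did not overlap, against 22.5% of all 16476 genes tested. In 6 of them the L29 sets were lower (Pf4, Fhl1, Selp, Mmrn1, Nfe2 and Lat, against 7.87% of all genes). In 4 they were higher (Itga2b, Rap1b, Vamp8 and Tubb1, against 14.7% of all genes). Tubb1 was detected in only 1 cell of each L29 set (summed 2.75 and 1.43 CPM), against 0 to 0.136 CPM in the L32 sets. With edgeR's quasi-likelihood test on counts summed per set, 0 of 31 members tested and 0 of 16476 genes (0.0%) passed an adjusted p of 0.05. The log2 difference, L29 minus L32, was -2.21 ± 0.53 (SE) for Pf4 (adjusted p = 0.373 in edgeR), -1.37 ± 0.34 for Fhl1 (0.373), -3.51 ± 1.12 for Selp (0.473) and 1.51 ± 0.62 for Itga2b (0.570). At an unadjusted p under 0.05 there were 10 members and 1433 genes (8.70%). DESeq2 called 710 of 17843 genes (3.98%), 405 of them lower in L29 (2.27%), and 3 of 30 members, Fhl1, Pf4 and Selp, all lower in L29. The median log2 difference of all genes was -0.07 in edgeR, 0.10 in edgeR without its filter on low counts and 0.12 in DESeq2. Within edgeR the sign thus changed with the filter, and the DESeq2 median was also taken over all genes with a read. The median of the members was -0.12 in edgeR and -0.18 in DESeq2.

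Members were detected together in the same cells somewhat more often than their shares within each set give. For each of the 231 pairs of the 22 members at 10% of cells, cells with both genes were counted and a Mantel-Haenszel odds ratio was taken with the set as stratum. It could be computed for 229 pairs and was above 1 for 174 (76.0%), with a median log2 odds ratio of 0.50. Among all pairs of the 9689 genes 65.1% were above 1, with a median of 0.24. When cells were also split at the median number of genes detected in their set, a stratification added after seeing the data, 159 pairs (69.4%) were above 1 with a median of 0.41, against 57.9% and 0.12 among all pairs. With this split 18 pairs turned from above 1 to below 1 and 3 the other way. The part of depth in the remaining difference was not tested. These are descriptions of cells, which are not replicates.

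**Figure D3:**
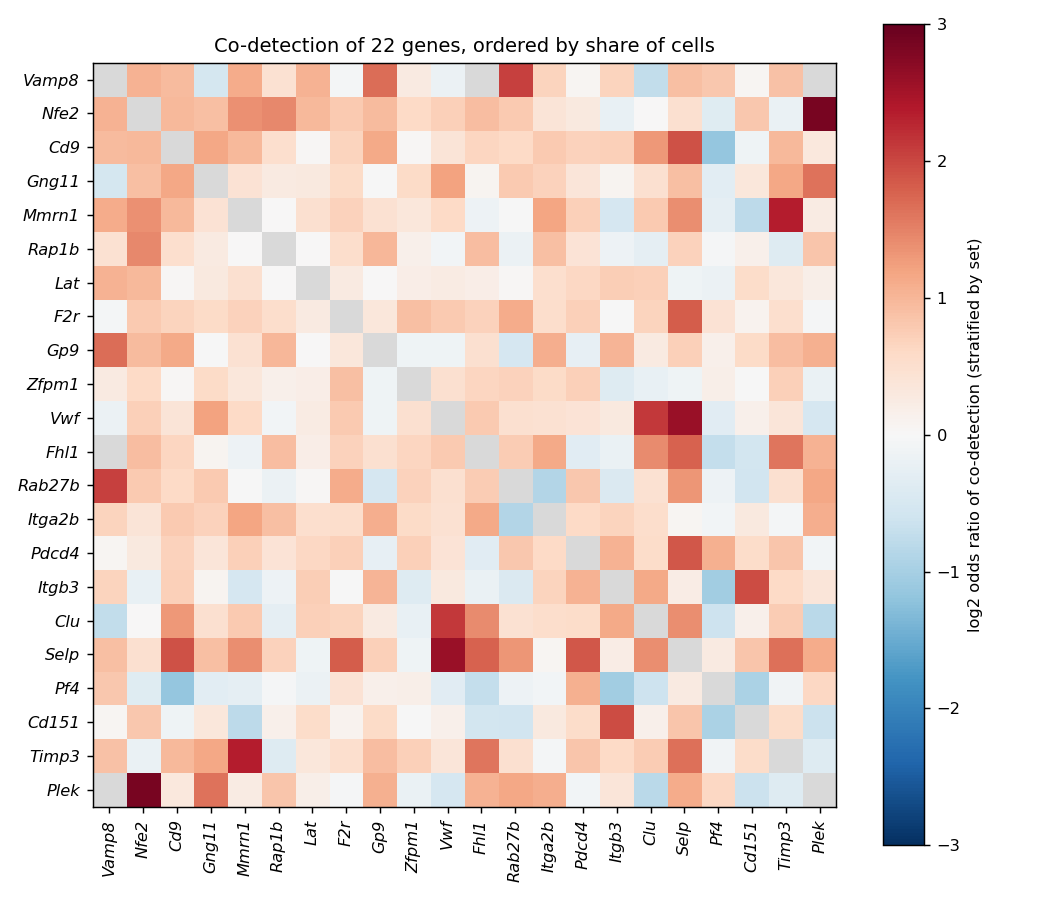
Log2 odds ratio of co-detection, stratified by set, for each pair of the 22 members detected in at least 10% of cells, ordered by share of cells, with red above 0, blue below 0 and grey where no ratio could be computed. The reddest cells are Nfe2 with Plek, Vwf with Selp and Mmrn1 with Timp3, and the row of Pf4 holds the most blue.

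The pairs with the largest odds ratios came from several roles. Vwf and Selp, both stored in alpha granules, were together in 22 cells against 11.1 expected (odds ratio 6.02, above expectation in 5 of 6 sets). Vwf and Clu were together in 23 cells against 12.3 (4.35, 5 of 6 sets). Mmrn1 and Timp3 were together in 30 cells against 24.2 (5.08, 6 of 6 sets). Nfe2 and Plek were together in 29 cells against 24.9 (7.22, 5 of 6 sets), and 1 of the 30 cells with Plek lacked Nfe2. That ratio was the largest with the set alone as stratum, whereas with the split by genes detected it was 5.79 and that of Vwf with Selp was 5.95. Itgb3 was with the tetraspanin Cd151 in 15 cells against 7.75 (3.86), but with its own partner chain Itga2b in 13 against 10.1 (1.59, 3 of 6 sets). Itga2b and Gp9 were together in 24 cells against 17.3 (2.14, 4 of 6 sets). Cd9 and Vwf are neighbours on chromosome 6, 52.0 kb apart with 0 genes between them in the table, and their odds ratio was 1.30 (47 cells against 44.7).

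Selp and Pf4 were at opposite ends of the members. Selp had an odds ratio above 1 with 19 of the 21 other members (median log2 odds ratio 0.90). Pf4 had one above 1 with 7 of 21 (median -0.15), although both are alpha granule genes. Pf4 was with Cd9 in 21 cells against 25.5 expected (0.450, below expectation in 5 of 6 sets), with Itgb3 in 4 against 6.95 (0.487) and with Vwf in 9 against 10.4 (0.793). Pf4 was also one of the members with more CPM in wells under the filter than in kept cells, 50.1 against 27.4 CPM. In the 38 of those wells with fewer gene than spike-in counts, Pf4 was at 1.62 CPM (1 read). Whether stray reads had a part in its pairs was not tested. In 10 pairs the count was above expectation in all 6 sets and in 0 pairs below. The share of such pairs among all genes was not computed, and 65.1% of all gene pairs had an odds ratio above 1. The count is thus a description only. These 10 were Itga2b with Zfpm1, Rap1b and Fhl1, Fhl1 with Rap1b, Selp and Vamp8, Cd9 with Mmrn1, Vwf with Gng11, Mmrn1 with Timp3, and Plek with Vamp8.

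A typical HSC carried 8 of the 22 members (quartiles 6 and 10, range 0 to 20). By set the median was 4 in L29 HSC-4, 10 in L32 HSC-4 and 8 in the other 4 sets. Within sets, the variance of the number was 1.85 to 2.55 times that of independent detection. This ratio was not computed for other genes, and 65.1% of all gene pairs had an odds ratio above 1. Spearman's rank correlation between this number and the genes detected per cell was 0.406 to 0.695 in 5 sets and -0.144 in L32 HSC-2. Of the 10 members under 10%, 153 cells had none, 53 had 1, 22 had 2, 3 had 3 and 1 had 4. The cell with 4 was also the cell with 20 of the 22 more common members, so the widest programme of both kinds sat in 1 cell of L32 HSC-3. That cell had 8718 genes detected, the 5th-highest number, and 116009 counts, the lowest total among the kept cells. Without it, 170 pairs had an odds ratio above 1.

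**Figure D4:**
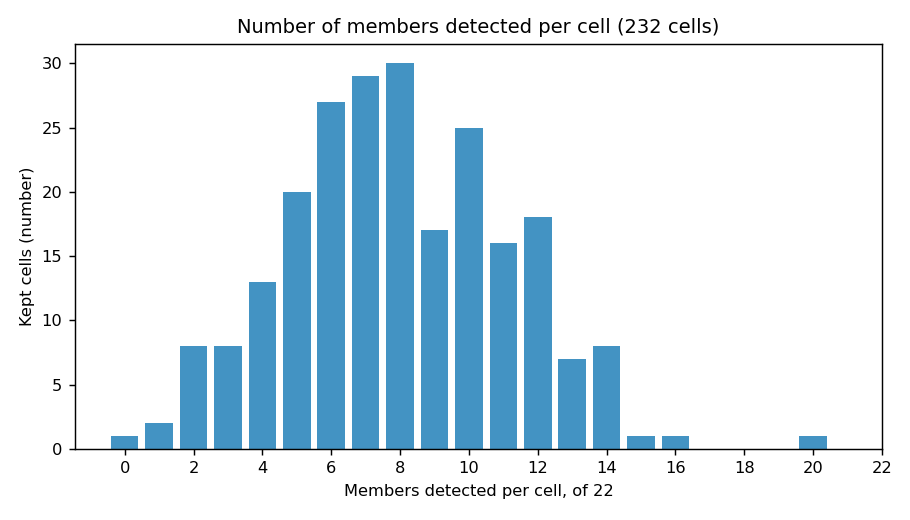
Number of kept cells (y axis) by the number of the 22 members detected in the cell (x axis), over 232 cells. The median is 8 and a single cell with 20 members stands apart on the right.

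Relations of level, as opposed to detection, were tested by partial Spearman rank correlation within each set, with genes detected, total counts and plate held fixed, and by limma over the 6 sets. Each of the 21 members detected in 10% to 90% of cells was set against all genes at 10% of cells, and p-values were adjusted over all 203448 tests by the Benjamini-Hochberg method. Of the 441 tests between members 0 passed, against 3 of all tests (0.00147%). At an unadjusted p under 0.05 there were 36 (8.16%) against 5.36% of all tests. Over the 231 different pairs, 156 coefficients were positive (67.5%, against 51.9% of all tests), with a median of 0.0318 against 0.00339. The largest was that of Clu with Vwf, at 0.295 ± 0.282 (SD over n = 6 sets), positive in 6 of 6 sets with an adjusted p of 0.205 in limma, which ran from 0.0486 to 0.786 over the alternatives. The most negative was Gng11 with Vamp8, at -0.20 ± 0.155 and negative in 6 of 6 sets.

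The 3 calls were for genes outside the members. Cd9-ps, the copy whose reads cannot be fully told apart, was called with Cd9 (coefficient 0.894 ± 0.0451, adjusted p = 3.39e-87 in limma). Bicral, a chromatin remodelling subunit gene, was called with Cd151 (0.575 ± 0.364, 5 of 6 sets positive, adjusted p = 5.54e-06 in limma). Without set L32 HSC-5 that coefficient was 0.133 with an adjusted p of 0.978, and the call was also lost with a stricter cell filter that kept 198 cells (adjusted p = 0.352 in limma) and with genes at 5% of cells (0.506). Zfp692, a zinc finger gene, was called with Plek (0.380 ± 0.421, 5 of 6 sets, adjusted p = 0.00500 in limma). Without set L32 HSC-2 it was 0.0824 with an adjusted p of 0.985. The call was also lost without L32 HSC-5 (0.117), with the stricter cell filter (0.964) and with genes at 5% of cells (0.910).

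Vwf and Mmrn1 rose with the long-term HSC (LT-HSC) score. This score averages 25 genes of long-term repopulating HSCs, such as Procr, Mecom and Hlf, and holds no member. Its genes were chosen with earlier results of these data known, so the score is not independent of these cells. The rank correlation between Vwf and the score was 0.242 in L29 HSC-3, 0.127 in L29 HSC-4, 0.582 in L32 HSC-2, 0.394 in L32 HSC-3, 0.356 in L32 HSC-4 and 0.524 in L32 HSC-5. All 6 were positive, with a mean of 0.352 ± 0.170 (SD, adjusted p = 0.000220 in limma), and Vwf stayed past the threshold in 11 of 11 alternatives. For Mmrn1 the coefficient lay between 0.204 and 0.301 in the 6 sets, with a mean of 0.254 ± 0.0450 (adjusted p = 0.0433 in limma). The standard error in limma was the same for both genes, 0.0713 on Fisher's z scale, a transform of the coefficient. These p-values thus do not reflect each gene's own SD over the sets. The adjusted p of Mmrn1 stayed past the threshold in 3 of 11 alternatives and was lost without any 1 of the 6 sets, up to 0.168 without L29 HSC-3. In all, 2 of 22 members were called, both positive, against 69 of 9689 genes (0.712%), of which 30 were positive (0.31%).

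Other members did not follow the score past the threshold. Selp had a coefficient of 0.170 ± 0.190 (adjusted p = 0.319 in limma), Cd9 0.169 ± 0.234 (0.326) and Clu 0.153 ± 0.364 (0.404), with both signs among their sets. Plek (-0.13 ± 0.102), Vamp8 (-0.10 ± 0.0657, negative in 6 of 6 sets) and Pf4 (-0.09 ± 0.192) were lowest. Of the 22 members 16 had a positive coefficient, with a median of 0.0180 against 0.00159 for all genes. Of the genes in the 3 pathway lists, 0 of 45 tested passed. With a cell cycle score of 40 genes 0 of 22 members passed, against 58 genes (0.599%), 56 of them positive (0.578%), and the only member at an unadjusted p under 0.05 was Cd151 (coefficient -0.18 ± 0.144, negative in 6 of 6 sets, adjusted p = 0.283 in limma). With RNA content, the log2 ratio of gene to spike-in counts of a cell, 0 of 22 passed against 24 genes (0.248%), 6 of them positive (0.0619%), and 0 members had an unadjusted p under 0.05.

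**Figure D5:**
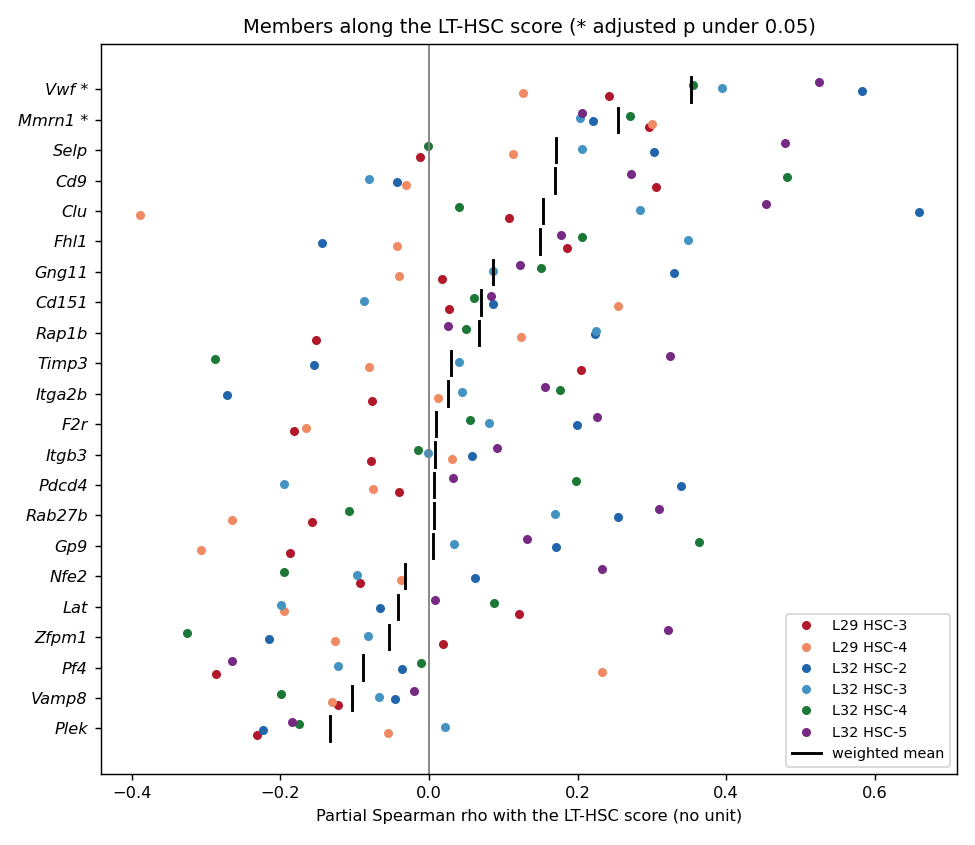
Partial Spearman rank correlation of each of 22 members with the LT-HSC score (x axis, no unit), 1 point per set and a black bar for the weighted mean, with a star at an adjusted p under 0.05. Vwf and Mmrn1 lie to the right of 0 in all 6 sets, with means of 0.352 and 0.254, and most other members lie on both sides.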

How the data were processed

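The deposited values are raw counts, reads assigned to each gene in each cell with no normalization by the authors. They come from poly(A) RNA of single cells with template switching, 22 PCR cycles and 700 pg of cDNA for tagmentation, per the labels' protocols. GSNAP, featureCounts (1.6.2) and build mm10 are named in the submitters' processing notes, and Ensembl release 87 in the table's name. Strand and multi-mapped reads are not given in the sources used here, so members with overlapping or antisense genes (Gp1bb, Selp, Cd9, Pdcd4, Plek, Thbs1, Cd151, Tpm4, Timp3 and Lat) are uncertain. No molecular identifiers were used, so intervals and floors (95% Clopper-Pearson, 3 cells for a share of 0) cover counting error only.

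Counts of Ensembl genes were scaled to CPM per cell, without spike-in and transgene rows, and log2(CPM/10 + 1) served as the level. Detection meant 10 CPM. Each well received 1 sorted cell, so no doublet caller was run, and 0 pairs of cells had identical counts. Partial correlations were computed in scipy 1.17.1 and tested with limma 3.58.1, and summed counts with edgeR 4.0.16 (main) and DESeq2 1.42.0, after each step was tested on simulated data. Alternatives changed the detection limit, depth (thinned to 100000 counts), cell filter, covariates, gene filter, normalization and sets. The members and gene lists were chosen with earlier results of these data known. Named were all 32 members, the 4 genes of each list with the highest CPM per kb, and genes past a test. Kit, Gata1, Cdh5, Gfi1 and Hoxb4 were named after their values were seen. Some genes of the lists are not reported here.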

Additional observations from a re-analysis of the deposited data

Results flagged for a closer look

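Over the 6 sets, 63 groups of values were examined (the percent of cells and the summed CPM of each member that varied), and in 7 of them 1 set lay so far from its nearest neighbour that the gap passed Dixon's 95% critical value for 6 values. Chance alone flags about 1 group in 20 if the values are normal and the groups independent. The percent and the CPM of a member come from the same cells, so that rate need not hold here. No explanation was tested for any of them.

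Set L29 HSC-4, which also had the fewest genes per cell, was low in the share of cells with Mmrn1 (20.9% against 65.2% to 84.6% in the other sets) and with Lat (18.6% against 46.2% to 60.5%). The same set was high in Gp1ba, at 19.5 CPM against 0 to 5.57 CPM, where Gp1ba was detected in 5 of 232 cells in all. Set L32 HSC-4 was high in Itgb3, at 127 CPM against 14.0 to 53.0 CPM, and in Thbs1, at 203 CPM against 0 to 72.0 CPM. Plek was high in L32 HSC-5, at 149 CPM against 24.9 to 59.3 CPM. Gng11 was high in L29 HSC-3, at 273 CPM against 142 to 160 CPM, with 1 cell at 2981 CPM.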

How the results depend on the processing

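The count of members at 10% of cells (22) was 24 at 1 CPM, 17 at 100 CPM, 23 after thinning and 22 to 24 when each set was left out in turn. Pairs with an odds ratio above 1 (174) ranged from 164 to 178 without 1 set. The 3 calls with the anchors became 30 with plate as the only covariate and 1 with genes at 5% of cells, and 1 to 10 without 1 set. For the LT-HSC score the 69 calls became 44 with plate only and 42 with a stricter cell filter, and 24 to 60 without 1 set. The 58 calls with the cell cycle score became 1100 and 34, and 33 to 49, and the 24 with RNA content became 984 and 3, and 7 to 38. For the library series the 0 calls in edgeR became 2 without a filter on low counts, 1 with the stricter cell filter, 710 in DESeq2, and 0 to 0 without 1 set. With plate only, 2 tests between members and 2 members with RNA content were called. Except where the construction shows it (fewer sets or cells), the cause was not tested. The median log2 difference of all genes between the series turned from -0.07 to 0.10 without a filter on low counts and to 0.12 in DESeq2, and 21 of 229 pairs changed the side of 1 with the split by genes detected. With HSC codes 3 and 4, which both series hold, as a block, 0 of 15721 genes were called in edgeR (907 at an unadjusted p under 0.05); whether equal codes mark a shared source is not given. Detection below about 10 CPM was limited by depth, since 10 CPM is 2.80 reads in the median cell.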

Other observations

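Markers of other blood lineages were read beside the 32 members, of which 22 reached 10% of cells. Of 13 erythroid genes found 3 reached 10% of cells, Car2 at 96.1%, Hbb-bt at 12.9% and Hbb-bs at 11.2%, and Epor, the receptor of erythropoietin, was at 4.74%. Of 14 myeloid genes 2 did, the lysozyme gene Lyz2 at 87.1% and Prtn3 at 81.9%, with Cd68 at 6.47% and S100a9 at 1.29%. Of 8 B cell genes only Cd79b did, at 24.6%, while Vpreb1 was at 3.88% and Cd79a at 1.29%. Of 8 T and NK cell genes 0 reached 10%, with Klrb1c at 8.19%, Nkg7 at 7.76%, Cd4 at 0.862% and Cd3d in 0 cells. Of 6 mast cell and basophil genes 0 did, with Cpa3 at 3.02% and Ms4a2, Mcpt8 and Fcer1a in 0 of 232 cells, which allows up to 1.29% each. Kdr, an endothelial growth factor receptor, was at 2.59%.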
